A study of Mus musculus with 6 samples.

Results

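Complement is a cascade of plasma proteins that marks microbes and damaged cells and can perforate their membranes. The 8 complement genes described here are C2, C3, C4b, C6, C8a, C9, Cfb and Cfi, taken from a table of 22180 mouse genes measured in adipose tissue. A gene was read from the probe set that the platform annotation names with its symbol alone, and 7 of the 8 genes had such a probe set, 1 each. C3 had none and is not analysed here, and the other 7 are the members below. Each array was described against Alb, which encodes albumin, the main secreted protein of liver.

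The tissue came from offspring aged 32 weeks whose mothers had been fed either a chromium restriction diet (3 arrays) or a control diet (3 arrays). Adipose RNA was labelled with biotin, 1 array per sample. Replicate numbers are the only mark of separate samples, with no word on animals or litters, so a p-value here reflects the spread among these arrays, which may be technical. Strain, sex, fat depot and the amount of chromium are not stated in the labels. The values were taken as log2, on which a difference of 1 is a 2-fold difference. Array medians lay between 5.44 and 5.57.

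The cascade starts by 3 routes. In the classical and lectin routes C1q or mannose-binding lectins recognise a surface and their proteases cut C4 and C2, whose fragments form a C3 convertase. In the alternative route factor B, the product of Cfb, binds activated C3 and amplifies the reaction, and factor I, the product of Cfi, switches it off by cutting C3b and C4b. C5, C6, C7, C8 and C9 then assemble into the membrane attack complex. Liver makes most complement protein of the blood, while adipose tissue is known to express several of the early components itself.

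The arrays differed in liver transcripts within the chromium restriction group. Alb had log2 values of 13.72, 9.17 and 13.55 on chromium restriction arrays 1, 2 and 3, against 9.37, 9.98 and 9.98 in control replicates 1, 2 and 3. Replicates 1 and 3 therefore stood 3.94 and 3.77 above the control mean, and replicate 2 stood 0.60 below it. Of 21 measured liver markers, 18 were higher on chromium restriction arrays 1 and 3 than on all other 4 arrays. In 2 of the 21, Apob and Apoa1, replicate 2 was also above every control. Apob was at 7.71 on replicate 2 and at 5.45 to 5.66 in the controls, and Apoa1 at 7.44 and at 5.50 to 6.27. Relative to each marker's control mean, the median over the 21 was 4.91, -0.31 and 4.44 in chromium restriction replicates 1 to 3. Summed on the linear scale, the 21 gave 66784, 12384 and 51427 on those arrays, against 12940 to 15996 in the controls. The 3 liver markers not higher on arrays 1 and 3 than on the other 4, named after their values were seen, were Cyp2e1, Rbp4 and Ass1. Cyp2e1 (12.79 to 13.28) and Rbp4 (11.23 to 11.93) were high on all 6 arrays and weigh heavily in the lower sums. Adipocyte markers were high on every array, with a list mean of 11.81 to 12.04 in the chromium restriction arrays and 12.06 to 12.20 in the controls (12 measured genes). Of the 12, 11 had a negative group difference, as had 12602 of all 22180 genes. In limma, described below, Retn passed as higher (1.52, adjusted p = 0.00118) and Adipoq as lower (-1.22, adjusted p = 0.00495), where 0.194% of all genes passed. Both lie in table rows in which some values are written with more digits than the rest.

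Sequence from before the gene start (RefSeq, GRCm38.p6) was available for C6, C8a and C9, 3 of the 7 members, and for Alb. All of these are shown, and none was available for C2, C4b, Cfb and Cfi. Of the 3, C8a and C9 moved with Alb across the arrays while C6 did not. The arrays name no genome build, so the coordinates belong to RefSeq alone. Only bases outside the annotated gene are printed, 5′ to 3′ on the gene's strand, and capitals mark the letters of a searched motif. C6 is at chr15:4726960-4727066 on the plus strand, C8a at chr4:104876488-104876648 on the minus strand, C9 at chr15:6445096-6445345 on the plus strand and Alb at chr5:90460620-90460869 on the plus strand.
C6: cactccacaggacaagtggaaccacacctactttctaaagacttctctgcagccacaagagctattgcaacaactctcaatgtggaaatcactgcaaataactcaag
C8a: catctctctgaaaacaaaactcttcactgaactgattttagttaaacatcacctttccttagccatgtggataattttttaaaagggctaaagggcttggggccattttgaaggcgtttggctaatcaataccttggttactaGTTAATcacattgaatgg
C9: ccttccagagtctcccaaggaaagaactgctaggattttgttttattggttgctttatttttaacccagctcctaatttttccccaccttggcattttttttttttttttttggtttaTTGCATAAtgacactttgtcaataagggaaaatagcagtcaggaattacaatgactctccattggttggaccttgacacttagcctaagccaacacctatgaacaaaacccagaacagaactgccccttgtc
Alb: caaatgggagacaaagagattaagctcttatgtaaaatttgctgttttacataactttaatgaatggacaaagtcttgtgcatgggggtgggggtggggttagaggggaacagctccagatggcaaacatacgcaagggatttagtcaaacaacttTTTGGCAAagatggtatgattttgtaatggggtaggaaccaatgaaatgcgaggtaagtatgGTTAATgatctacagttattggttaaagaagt

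Motifs known for liver transcription factors were searched on both strands in the 250 bases before each start. The letters GTTAAT, found in sites of HNF1, lay in the windows of C8a and Alb and in 6.43% of 32851 RefSeq windows of that length. The letters TTGCNNAA, found in sites of C/EBP proteins, lay in the windows of C9 and Alb and in 9.56% of all windows. In Alb this match reads TTTGGCAA on the printed strand. TGNACTTTG, found in sites of HNF4, lay in 1.19% of all windows and in none of these 4, and the C6 window held none of the 3 motifs. These matches describe letters only.

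Among the members of the classical and lectin routes, C4b followed Alb and C2 did not. C4b, which encodes complement C4, had values of 10.56, 9.28 and 10.80 on chromium restriction arrays 1, 2 and 3, against 9.55, 9.12 and 9.78 in the controls. Replicates 1 and 3 were above every control, and replicate 2 lay inside the control range. C2, whose product is the protease part of the classical C3 convertase, was at 8.24, 8.49 and 8.41 in the chromium restriction arrays, against 7.59, 8.48 and 8.89 in the controls. All 3 chromium restriction values of C2 lay inside the control range, and the lowest of the 6 was control replicate 1. C4a, a neighbour of C4b that is nearly identical in sequence and is annotated as a transcribed pseudogene, stayed between 4.64 and 4.98 in the chromium restriction arrays and between 4.72 and 4.95 in the controls. Signal shared between the C4b and C4a probe sets was not tested.

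In the alternative route both members were higher on arrays 1 and 3 than on the other 4, by unlike amounts. Cfb was at 10.32, 9.09 and 10.02 in the chromium restriction arrays, against 8.59, 8.93 and 9.50 in the controls. Replicates 1 and 3 were above every control by at least 0.52, and replicate 2 lay inside the control range. Cfb lies beside C2 in the genome, on mouse chromosome 17, yet C2 did not show this split. Cfi, the inhibitory protease of the alternative and classical convertases, was at 9.57, 5.004 and 8.91 in the chromium restriction arrays, against 5.50, 5.009 and 5.30 in the controls. It had the widest spread of the 7 members, 4.57 log2 units over the 6 arrays, and replicate 2 was level with the lowest control. Cfi in replicate 2 and in control replicates 2 and 3 was below the median of its array (5.44 to 5.57). The background level is unknown, so each Cfi difference given here is one of deposited values and is not a fold of RNA.

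In the membrane attack complex, C8a and C9 followed Alb and C6 did not. C8a, which encodes the alpha chain of C8, was at 6.82, 5.10 and 7.06 in the chromium restriction arrays, against 5.62, 5.59 and 5.35 in the controls. C9, whose product forms most of the pore, was at 6.20, 4.65 and 7.05 in the chromium restriction arrays, against 4.75, 4.58 and 4.69 in the controls. Replicate 2 was the lowest of the 6 arrays for C8a and lay inside the control range for C9. In each control C9 was below the lower quartile of its array (4.75 to 4.82), and the background level is unknown, so each C9 difference given here is one of deposited values and is not a fold of RNA. C6, which binds C5b to start the complex, was at 8.68, 8.49 and 8.06 in the chromium restriction arrays, against 7.66, 8.93 and 8.55 in the controls, and the groups overlapped throughout.

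**Figure D1:**
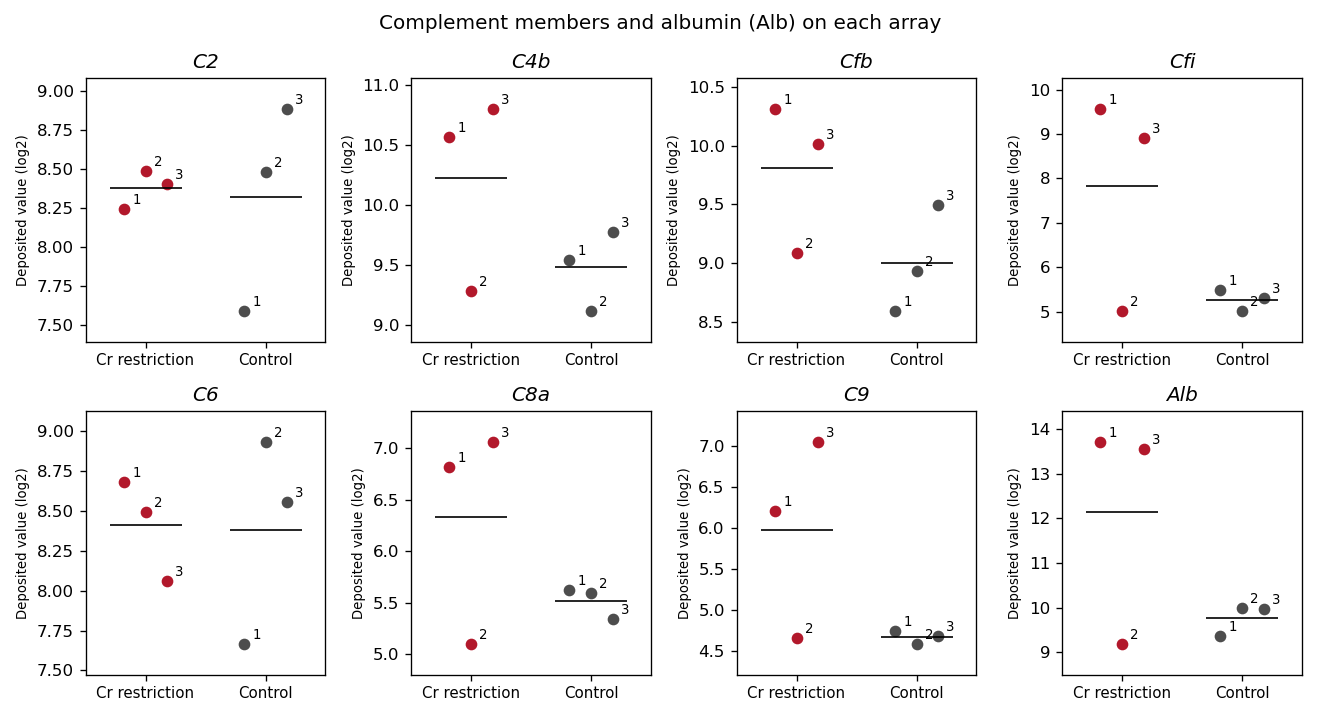
Deposited log2 value of the 7 members and Alb on each array, with chromium restriction arrays (red) left of control arrays (grey). Numbers are replicate numbers and lines are group means. C4b, Cfb, Cfi, C8a and C9 are high in replicates 1 and 3 as Alb is, with Cfi at 9.57 and 8.91 there and 5.004 in replicate 2, while C2 and C6 are lowest in control replicate 1 (7.59 and 7.66).

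None of the 7 members passed the comparison of maternal diets. In limma, with Benjamini-Hochberg adjustment over all 22180 genes, 0 of 7 had an adjusted p under 0.05, and 0 of 7 had an unadjusted p under 0.05. Over all genes 0.194% passed (43 of 22180), and 5.95% had an unadjusted p under 0.05. The 3 chromium restriction arrays separated fully from the 3 controls in 0 of 7 members, while 9.6% of all genes separated in either direction. All 7 differences were above 0, with a median of 0.803, against a median of -0.018 over all genes.

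The fitted difference was largest for Cfi, at 2.56 ± 1.14 (log2, SE, n = 3 per group, limma adjusted p = 0.817). Cfi averaged 7.83 ± 2.47 in the chromium restriction group and 5.27 ± 0.25 in the controls (SD, n = 3), so the spread within the first group nearly equalled the difference. The deposited C9 values, low in the controls as described, differed by 1.29 ± 0.56 (SE, limma adjusted p = 0.817). C8a differed by 0.81 ± 0.50 (adjusted p = 0.905), Cfb by 0.80 ± 0.37 (adjusted p = 0.818) and C4b by 0.74 ± 0.41 (adjusted p = 0.872). C2 and C6 differed by 0.06 ± 0.32 and 0.03 ± 0.34 (limma adjusted p = 0.997 for both). The wide errors of C2 and C6 leave differences as large as those SEs undetectable at this number of arrays.

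Leaving out 1 chromium restriction array moved these differences up or down, depending on the array. Without replicate 1 the difference was 1.69 for Cfi, 1.18 for C9, 0.56 for C8a, 0.55 for Cfb and 0.56 for C4b, and none passed (limma adjusted p = 0.998 for each). Without replicate 3 it was 2.02 for Cfi, 0.76 for C9, 0.44 for C8a, 0.70 for Cfb and 0.44 for C4b, and none passed (limma adjusted p = 1 for each after rounding). Among the alternatives run, members passed only when replicate 2, the array with control-like Alb, was left out. Without it, at 2 arrays against 3, Cfi differed by 3.97 ± 0.24 (limma adjusted p = 0.00127), C8a by 1.42 ± 0.13 (adjusted p = 0.00583) and C9 by 1.95 ± 0.25 (adjusted p = 0.0185). These 3 of 7 members passed, where 1.98% of all genes did, C9 against control values under the lower quartile of their arrays. C4b at 1.20 ± 0.21 and Cfb at 1.16 ± 0.27 did not pass (limma adjusted p = 0.0627 and 0.157). With replicate 2 alone against the controls the differences were -0.27 ± 0.21 for Cfi, -0.42 ± 0.16 for C8a, -0.018 ± 0.13 for C9, -0.20 ± 0.27 for C4b and 0.08 ± 0.36 for Cfb, none past the test. In that setting the spread of the lone array is assumed to equal that of the controls, and 0.0271% of genes passed.

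With the Alb value of each array as a covariate, no member passed and each member's difference was smaller than its SE, where 0.198% of the other genes passed. Cfi differed by 0.36 ± 0.38, C9 by 0.29 ± 0.33, Cfb by 0.19 ± 0.27, C4b by 0.02 ± 0.26 and C8a by -0.14 ± 0.21 (log2, SE, limma adjusted p = 1 for each after rounding). C2 and C6 were little moved, at 0.07 ± 0.42 and 0.005 ± 0.45. Since Alb was high on replicates 1 and 3 alone, this fit leans on replicate 2 for the diet difference. Maternal diet and the presence of liver RNA cannot be told apart on replicates 1 and 3. In bulk tissue, a change in the number of cells of a type and a change in RNA per cell cannot be told apart either.

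**Figure D2:**
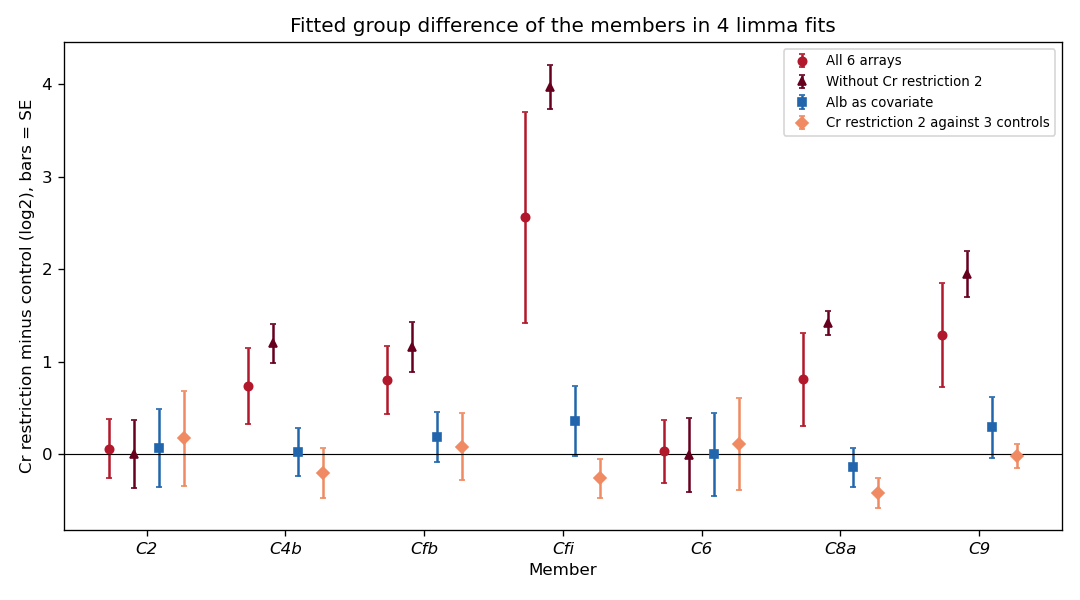
Fitted chromium restriction minus control difference (log2, bars are limma SE) of the 7 members in 4 fits. Without chromium restriction replicate 2 Cfi reaches 3.97, C9 1.95 and C8a 1.42, and with Alb as covariate or with replicate 2 alone the 7 members lie between -0.42 and 0.36.

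Set side by side across the arrays, the members fell into 2 descriptions. C4b, C8a, C9, Cfb and Cfi (5 of 7) were higher on chromium restriction arrays 1 and 3 than on the other 4 arrays, a pattern shown by 8.31% of all genes and chosen after the values were seen. In C8a, C9 and Cfi (3 of 7) the gap to the next array was over 1 log2 unit, at 1.19, 1.45 and 3.41, as it was in 1.01% of all genes. The gap was 3.57 for Alb, 0.79 for C4b and 0.52 for Cfb. C4b and Cfb stood well above the array medians on all 6 arrays, at 8.59 or more, and on arrays 1 and 3 they stood 1.01 to 1.32 above the control mean.

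The order of arrays 1 and 3 was not the same in all 5. Alb was higher in replicate 1 than in replicate 3 by 0.17. All 18 liver markers with the pattern, Alb included, had that order, and over the 21 measured liver markers the difference was 0.09 to 0.87. Cfi (0.66) and Cfb (0.30) had it too. C9 had the opposite one, lower in replicate 1 by 0.84, and so had C8a (-0.25) and C4b (-0.23). Of 15 other complement genes with the pattern, 15 were higher in replicate 1, by 0.10 for C8b up to 1.33 for Cpn1. Cpn1 was named after its value was seen. Over all 1843 genes with the pattern 1198 were higher in replicate 1. Each of these is a difference between 2 arrays without replicates and has no test.

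**Figure D3:**
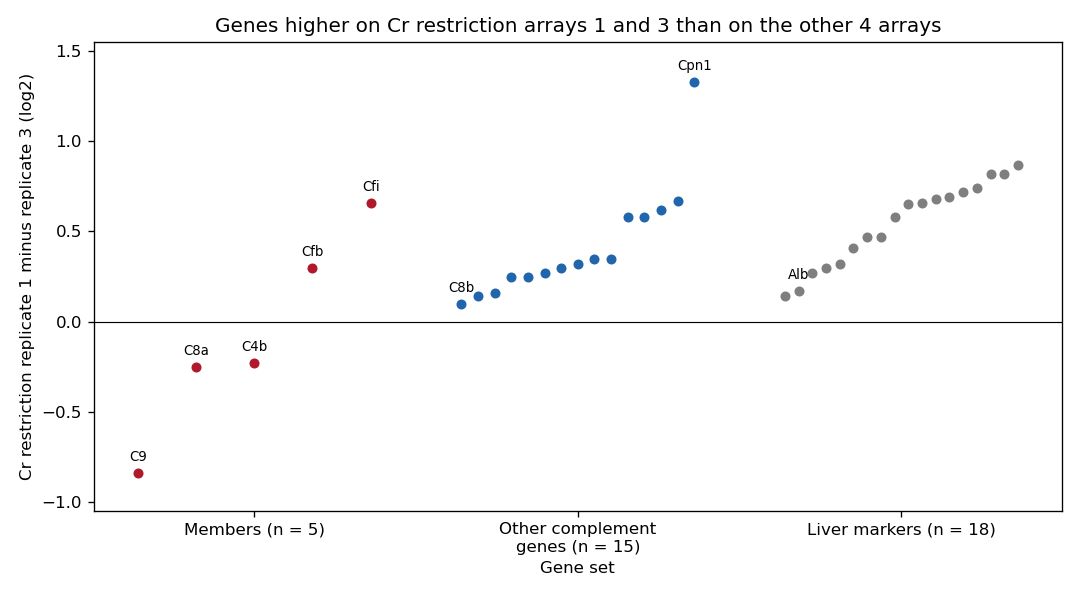
Difference between chromium restriction replicates 1 and 3 (log2) for genes higher on both arrays than on the other 4, in 3 sets. C9 (-0.84), C8a (-0.25) and C4b (-0.23) lie below 0, while the 15 other complement genes and the 18 liver markers lie above it.

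C2, C6 and Cfb shared a low value on control replicate 1. These 3 of 7 members had their lowest value there (7.59, 7.66 and 8.59), as did 15.7% of all genes, a pattern also chosen after the values were seen. Mesothelial markers, genes of the cell sheet that covers visceral fat, were lowest on the same array in 10 of 10 cases, with a summed linear level of 2494 to 2650 in the chromium restriction arrays and of 1150, 2967 and 3602 in control replicates 1, 2 and 3. Macrophage markers were lowest there in 8 of 11 cases, and progenitor and fibroblast markers in 3 of 9. Brown fat markers were highest on that array, with list means of 5.56 to 5.75 in the chromium restriction arrays and of 8.10, 5.77 and 6.54 in the controls. The part of these cell types in the levels of C2, C6 and Cfb was not tested. Without control replicate 1 the difference turned to -0.30 ± 0.15 for C2 and -0.33 ± 0.22 for C6, and was 0.59 ± 0.40 for Cfb, none past the limma test (adjusted p = 0.951, 0.957 and 0.961).

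**Figure D4:**
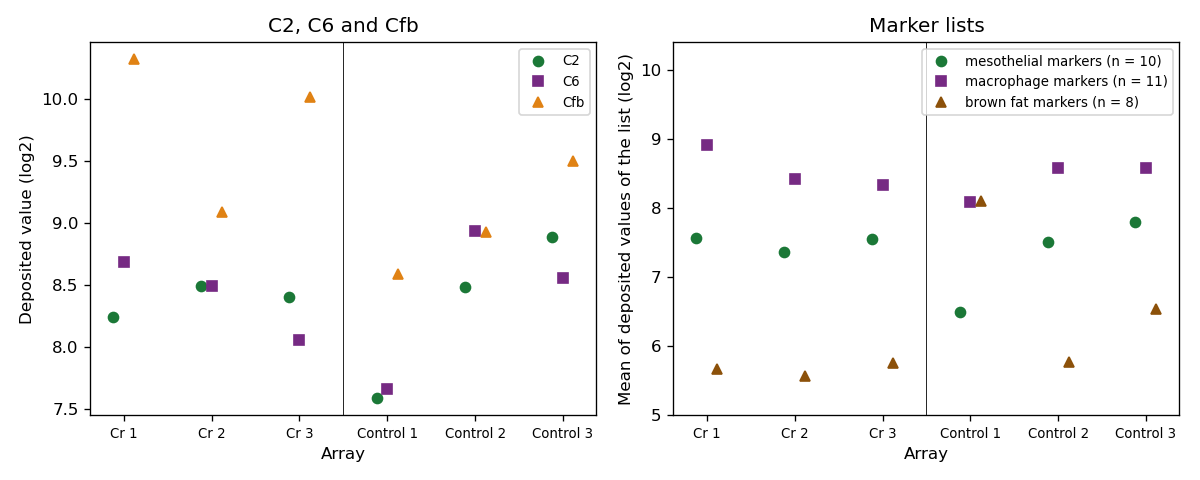
Left, deposited log2 values of C2, C6 and Cfb on each array, chromium restriction arrays before controls. Right, mean log2 value of 3 marker lists on the same arrays. Control replicate 1 has the lowest C2 (7.59), C6 (7.66), Cfb (8.59) and mesothelial mean (6.49) and the highest brown fat mean (8.10).

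The genes closest in profile to each member were found by the root mean square difference of profiles over the 6 arrays, each centred on its own mean. All 7 members spanned at least 1 log2 unit and were compared. For Cfi the closest were Itih4 (0.139), Pon1, Gnmt, Hsd17b13 and Otc, and Alb ranked 34 of 17342 genes compared, at 0.376. For the other members Alb was far down this order, at rank 14009 for C9, 17167 for C8a, 17259 for C4b, 17267 for Cfb, 17290 for C2 and 17291 for C6. The measure counts the size of a difference as well as its shape, and Alb spanned more than these 6 members did. Itih4 encodes a plasma protein made by liver, Gnmt a methyltransferase of liver and Otc an enzyme of the urea cycle. For C8a they were Cyp2c54 (0.151), Mug-ps1, Cyp2f2, Ugt3a1 and Urah, and for C9 they were Cyp2d10 (0.170), Cyp3a25, Cyp2c50, Ugt3a1 and Upp2. Several of these are cytochrome P450 genes. All 5 genes closest to C9 were, like it, higher in replicate 3 than in replicate 1, an order that their choice by likeness to C9 favours. Cyp3a25, for example, was at 5.61, 4.48 and 6.59 in the chromium restriction arrays and at 4.56 to 4.62 in the controls.

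For C4b the closest were Cyp2d9 (0.130), Vgll3, Lrg1, Pbld1 and Sema4g. For Cfb they were Paqr9 (0.127), Abcc3, Gamt, S100a6 and the epithelial keratin gene Krt18, which is also on the mesothelial list. The neighbours of C2 were Lrrc1 (0.097), Cryab, Bnc1, Igfbp5 and Tspan6. Bnc1, which encodes basonuclin, was at 6.56, 6.71 and 6.52 in the chromium restriction arrays, against 5.64, 6.75 and 6.85 in the controls. For C6 they were Tpi1 (0.132), Ildr2, Fdps, Dact2 and Dpp4, the last of which marks progenitors of adipose connective tissue and was at 9.27, 9.16 and 8.64 in the chromium restriction arrays, against 8.15, 9.24 and 9.41 in the controls. A small difference describes likeness on these 6 arrays only.

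The rest of the cascade was read from fixed lists of 55 complement symbols in all, of which 49 were measured, the 7 members included. Cfd and Masp2 had no probe set named for them alone and are not analysed here. Of the 42 other complement genes, 0 passed limma's adjusted test in either direction, and 10 had an unadjusted p under 0.05, of which 9 had a positive and 1 a negative difference. That is 23.8% of the 42, where 5.95% of all genes had such a p (537 with a positive and 782 with a negative difference). Their median difference was 0.202, and by sign 32 were above and 10 below 0, against 9572 above and 12602 below over all genes. All 3 chromium restriction arrays were above every control in 7 of the 42 and below every control in 1. Over all genes these shares were 3.53% and 6.06%.

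The remaining terminal components divided in the same way as the members. Hc, which encodes C5, was at 9.09, 4.80 and 8.51 in the chromium restriction arrays, against 4.93, 5.02 and 4.97 in the controls. In replicate 2 and the controls Hc was below the array medians (5.44 to 5.57), so its differences are not folds of RNA. C8g, the gamma chain of C8, was at 8.74, 6.003 and 8.11 in the chromium restriction arrays and at 5.72 to 5.90 in the controls, and C8b, the beta chain, was at 6.97, 5.41 and 6.88 in the chromium restriction arrays and at 5.23 to 5.77 in the controls. All 3 were high where Alb was high, and in C8g replicate 2 was also above every control. C7 went another way, at 6.40, 7.63 and 5.62 in the chromium restriction arrays, against 6.83, 6.75 and 6.67 in the controls, and so was highest on the array with control-like Alb. C7 and C6, which act next to each other in the complex, were the 2 measured terminal components that were not high with Alb.

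Soluble regulators followed Alb in 7 of 7 measured genes, where 8.31% of all genes were higher on arrays 1 and 3 than on the other 4. C4bp, which encodes C4b-binding protein, a cofactor of factor I, was at 8.65, 4.86 and 8.07 in the chromium restriction arrays, against 5.12, 4.92 and 4.88 in the controls. In replicate 2 and the controls C4bp was below the array medians (5.44 to 5.57), so its differences too are not folds of RNA. Vtn, vitronectin, was at 10.65, 7.17 and 9.97 in the chromium restriction arrays, against 6.96, 6.68 and 6.94 in the controls. Serping1, the C1 inhibitor, was at 11.92, 11.50 and 11.78 in the chromium restriction arrays, against 10.94, 11.33 and 11.43 in the controls. Clu, clusterin, an inhibitor of the membrane attack complex, was at 10.29, 9.80 and 10.04 in the chromium restriction arrays, against 9.42, 9.30 and 9.52 in the controls. In Vtn, Serping1, Clu and Cpn2 (4 of 7) replicate 2 was also above every control, so that all 3 chromium restriction arrays were. All 3 arrays were above every control in 3.53% of all genes. Replicate 2, whatever the other arrays did, was above every control in 4178 of 22180 genes. Clu differed by 0.63 ± 0.14 (SE) and Serping1 by 0.50 ± 0.17, with limma adjusted p of 0.547 and 0.777. On replicate 2 alone they stood 0.38 and 0.27 above the control mean.

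**Figure D5:**
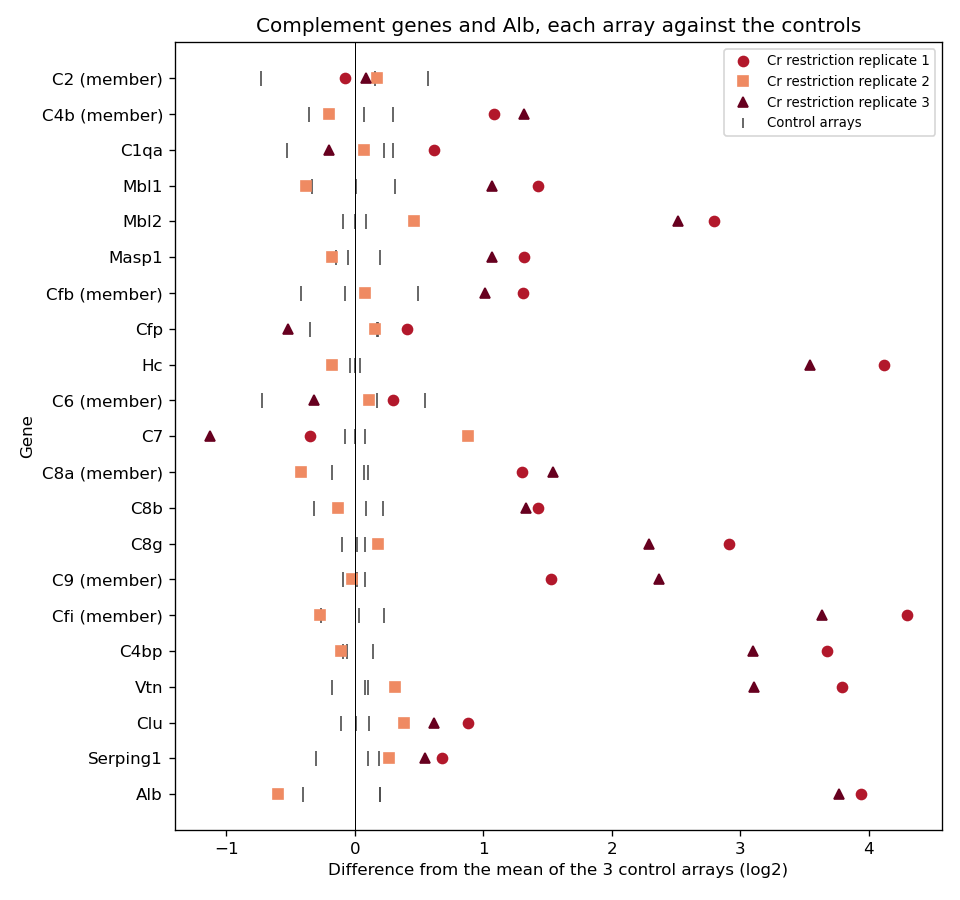
Difference of each array from the mean of the 3 control arrays (log2) for 20 complement genes and Alb. Chromium restriction replicates 1 (circles) and 3 (triangles) lie far to the right for Cfi (4.30 and 3.64), Hc (4.12 and 3.54) and Alb (3.94 and 3.77), while replicate 2 (squares) lies near the control arrays (ticks) for these genes.

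Recognition genes did not move as 1 group. The lectin genes Mbl2 and Mbl1 and the lectin protease gene Masp1 were higher on arrays 1 and 3 than on the other 4. This pattern was shown by 5 of 16 measured classical and lectin genes and by 8.31% of all genes. Mbl2 was at 7.96, 5.63 and 7.69 in the chromium restriction arrays and at 5.07 to 5.26 in the controls. Its replicate 2 was therefore also above every control, unlike that of Alb. With Alb as covariate Mbl2 differed by 0.79 ± 0.19, Mbl1 by -0.15 ± 0.25 and Masp1 by 0.03 ± 0.21 (SE), none past the limma test. C1qa, C1qb and C1qc, which macrophages express and which were also on the macrophage list, were highest in chromium restriction replicate 1 and lowest in control replicate 1. C1qa was at 9.28, 8.73 and 8.46 in the chromium restriction arrays, against 8.12, 8.96 and 8.89 in the controls. Fcna, a ficolin gene, was at 8.41, 7.82 and 6.60 in the chromium restriction arrays and at 6.97 to 8.17 in the controls. C1ra and C1s1, the proteases of the C1 complex, differed by 0.03 ± 0.09 and 0.27 ± 0.24 (SE, limma adjusted p = 0.995 and 0.969).

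Genes of cell-bound complement proteins were read from the lists of membrane regulators and receptors. Of 14 measured, 0 were higher on both arrays 1 and 3 than on the other 4, a count near the 8.31% of all genes. Cd46, a membrane cofactor for factor I, was at 6.01, 6.33 and 6.07 in the chromium restriction arrays, against 6.60, 6.43 and 6.64 in the controls, a difference of -0.42 ± 0.11 (SE, limma adjusted p = 0.679) with groups that did not overlap. Such a lower, separated pattern was shown by 6.06% of all genes. Itgax, a subunit of complement receptor 4, was at 5.88, 6.43 and 5.89 in the chromium restriction arrays, against 5.61, 5.62 and 5.40 in the controls (difference 0.52 ± 0.17, limma adjusted p = 0.770). C3ar1 and C5ar1, receptors for the released C3a and C5a fragments, differed by 0.06 ± 0.16 and -0.06 ± 0.17 (limma adjusted p = 0.994 for both). Cd55 and Cd59a, membrane inhibitors, differed by 0.07 ± 0.27 and -0.05 ± 0.11, and Cfp, properdin, by 0.02 ± 0.27.

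Acute-phase and cytokine genes, some of which liver induces together with complement, were also on a fixed list, with 18 measured. Only Il6 passed limma over all genes, at 3.49 to 3.54 in the chromium restriction arrays and 4.49 to 4.51 in the controls. The Il6 value was the lowest of all probe sets on each chromium restriction array. In each control it was below the lower quartile of its array (4.75 to 4.82). With the background level unknown, the Il6 difference is one of deposited values and is not a fold of RNA. The Il6 row is 1 of 64 in the deposited table in which some values are written with more digits than the rest. None of the 7 members lies in such a row. Saa3, a serum amyloid gene that adipose tissue expresses, was at 7.94, 8.15 and 8.35 in the chromium restriction arrays, against 7.35, 7.86 and 7.29 in the controls (difference 0.65 ± 0.18, SE, limma adjusted p = 0.725). Saa2 was at 8.06, 4.90 and 7.42 in the chromium restriction arrays and at 4.71 to 4.97 in the controls, and so split as Alb did.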

How the data were processed

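The deposited table holds 33793 probe sets on 6 arrays (1-colour, biotin label, per the labels). The deposited values were taken to be log2, from their range of 3.49 to 14.86. How the authors summarised and normalized them, and the log base, is not stated in the labels or the table, and no further normalization was applied. A single symbol was available for 23521 probe sets, more than 1 for 1814 and no symbol for 8458. Each of 22180 genes was read from its brightest probe set by mean, without a filter on dim genes.

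The difference between chromium restriction and control diet came from limma 3.58.1 (lmFit, then eBayes, R 4.3.3), two-sided, adjusted by Benjamini-Hochberg across the whole table and called at 0.05. The fit was tested on simulated data. Alternatives covered normalization, a dim-gene filter, variance model, array weights, probe set choice, a replicate block, the rows with extra digits, Alb, and leaving out arrays. The number of arrays limits the precision.

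The members and lists were chosen with earlier results of these data known. Named genes were the members, a fixed set of complement genes plus the 3 others with the smallest p, up to 4 per other list, and the 5 closest profiles per member, leaving out predicted loci, small RNAs and chemoreceptor genes. Genes outside this rule are marked as chosen after their values were seen.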

Additional observations from a re-analysis of the deposited data

How the results depend on the processing

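The number of arrays and the unknown background limit these results. For the 7 members and 28 other complement genes named, leaving aside the removal of single arrays, 351 recomputed values kept their direction and side of the threshold and 29 turned sign, none of them past the test. All 43 calls over all genes were lost with the replicate block (0 called by limma, 1337 genes at an unadjusted p under 0.05) and without the table rows with extra digits (0 called, 1264 at an unadjusted p under 0.05), and 6 genes were called without chromium restriction replicates 1 and 3. Same-numbered arrays did not deviate together (correlations of -0.12, -0.095 and 0.078). With 3 arrays per group, and liver transcripts that differ within a group, these correlations cannot decide whether the numbers pair the arrays. The block changed no call among the complement genes. Leaving out 1 array at a time gave 24 to 439 genes called, and 0 to 14 complement genes called, the highest in both cases without chromium restriction replicate 2.

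With chromium restriction replicates 1 and 3 left out, the difference turned to -0.2 for C4b, -0.42 for C8a, -0.018 for C9, -0.27 for Cfi, -0.18 for Hc, 0.88 for C7, -0.13 for C8b, -0.024 for C1ra, -0.1 for C1s1, -0.11 for C4bp, -0.38 for Mbl1, -0.18 for Masp1, 0.05 for Cd59a and -0.065 for C3ar1. With Alb as covariate it turned to -0.14 for C8a, 0.64 for C7, -0.003 for C1ra, -0.04 for C1s1, -0.15 for Mbl1, 0.011 for Cd59a and -0.067 for C3ar1. With array weights it turned to -0.12 for C6, -0.23 for Cfp, -0.006 for C1qa, -0.027 for C1qb, -0.41 for Fcna, -0.22 for Cd55 and -0.035 for C3ar1, and with median centring to -0.002 for Cfp. Leaving out 1 array at a time gave -0.3 to 0.34 for C2, -0.33 to 0.3 for C6, -0.18 to 0.28 for Cfp, -0.74 to 0.27 for C7, -0.1 to 0.35 for C1qa, -0.086 to 0.35 for C1qb, -0.018 to 0.31 for C1qc, -0.042 to 0.084 for C1ra, -0.14 to 0.028 for C4a, -0.34 to 0.57 for Fcna, -0.16 to 0.39 for Cd55, -0.13 to 0.058 for Cd59a, -0.1 to 0.15 for C3ar1 and -0.23 to 0.079 for C5ar1. Among the named genes the dim-gene filter left C9, C4a, Mbl1, Itgax and Cpn2 untested, and it tested 38 of the 49 measured complement genes. The cause of these turns and moved counts was not tested.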

Other observations

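Cr2, which encodes the complement receptor of B cells and follicular dendritic cells, had log2 values of 4.82, 6.27 and 4.90 on chromium restriction arrays 1, 2 and 3, against 5.10, 5.19 and 4.92 in the controls. Its highest value was on the array whose Alb was control-like, which was also the array with the highest C7 (7.63). Neither gene passed limma's adjusted test (adjusted p = 0.991 and 0.992). The list mean of 10 intestinal markers was 6.38, 7.21 and 6.25 on the chromium restriction arrays and 5.68 to 5.78 on the controls. Relative to each marker's control mean, the median over the 10 was 0.09, 1.4 and 0.09 on chromium restriction arrays 1, 2 and 3. Sis, Muc13 and Krt20, picked after their values were seen, were high on array 2 alone (7.09, 7.55 and 7.54). Of the 10, 2 passed limma's adjusted test, where 0.194% of all genes did. Fabp2, an intestinal fatty acid binding protein gene, was at 7.30, 7.15 and 7.31 on the chromium restriction arrays, against 5.27, 5.50 and 5.04 on the controls (limma adjusted p = 0.00358). Apoa4, an apolipoprotein gene, was at 10.34, 9.90 and 9.47 on the chromium restriction arrays, against 6.69, 7.32 and 6.84 on the controls (limma adjusted p = 0.012). Both were above every control on all 3 chromium restriction arrays, and both calls are lost without the table rows with extra digits, as are all others. The part of intestinal or lymphoid tissue in the levels of Cr2 and C7 was not tested. Cr2 and C7 were picked for this description after their values were seen.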
